A study of Homo sapiens with 14 samples.

Results

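The 37 genes described here encode integrins and laminins: 18 integrin α chains, 8 integrin β chains and 11 laminin chains. They were chosen by name, and all 37 were found among the 19410 genes of the expression table. Expression was measured by RNA sequencing in MDA-MB-231, a human triple-negative breast cancer cell line, in 7 groups of 2 libraries each (n = 2 per group). The unedited cells are called parental. The 6 edited lines, made with CRISPR/Cas9, are SAP30-KO1 and SAP30-KO2 (loss of SAP30, a subunit of the SIN3 complex), SIN3A+SIN3B-DKO1 and SIN3A+SIN3B-DKO2 (loss of both SIN3 scaffold proteins, hereafter SIN3A/3B-DKO) and MLL1-KO1 and MLL1-KO2 (loss of the histone methyltransferase MLL1). All 7 groups were labelled as untreated and grew in DMEM with fetal bovine serum. Each edited line was a mixture of several edited cells that had been expanded after puromycin selection, so it is neither 1 clone nor an unselected population, whereas no such step is described for the parental cells. The comparisons ask how loss of each regulator changed the members, and the same 2 parental libraries serve all 6 lines, so the comparisons with parental share them.

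Integrins are heterodimers of an α and a β chain that hold the cell to the extracellular matrix, and the α chain largely sets the ligand. Most α chains pair with β1, a smaller group of β chains pairs with αV, and β4 pairs with α6 alone, in the receptor that anchors hemidesmosomes to laminin. Laminins are trimers of an α, a β and a γ chain that form the basement membrane, and carcinoma cells both secrete laminins and bind them through integrins.

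Among the members called in both lines of at least 2 of the 3 genotypes, by the rule given with the first counts, ITGB8, LAMA4 and LAMB1 had an entry in the RefSeq promoter table, in which 26 of the 37 members matched by symbol. ITGB3 and ITGB4 had no entry. For the first 3, the 250 bases before the RefSeq start are described because these genes were called in more than 1 genotype, and the longest stretch of each that lies outside every annotated exon is printed 5′ to 3′ on the gene's strand. The windows were matched letter for letter to GRCh37, where they lie at chr7:20370273-20370522 (plus strand), chr6:112575770-112576019 (minus strand) and chr7:107643607-107643856 (minus strand). By the GENCODE gene positions, all of the LAMA4 window and part of the ITGB8 and LAMB1 windows lie inside the genes. Motif counts and base shares of whole windows therefore include bases of the genes. Capitals mark matches, on either strand, to a GC box (GGGCGG) or a CCAAT box (CCAAT), and the last 2 GC box matches of LAMB1 overlap.
ITGB8: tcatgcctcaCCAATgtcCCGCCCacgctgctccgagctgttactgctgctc
LAMA4: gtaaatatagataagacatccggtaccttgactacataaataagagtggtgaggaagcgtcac
LAMB1: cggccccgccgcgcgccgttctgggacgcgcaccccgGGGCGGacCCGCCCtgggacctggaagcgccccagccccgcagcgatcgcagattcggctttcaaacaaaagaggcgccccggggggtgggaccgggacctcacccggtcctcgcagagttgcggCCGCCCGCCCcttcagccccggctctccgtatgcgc
The whole LAMB1 window held 4 matches to the GC box and the ITGB8 window held 2 and 1 match to the CCAAT box, whereas the LAMA4 window held none of the 5 motifs searched. The other motifs, the TATA box (TATAAA), the AP-1 site (TGANTCA) and the E-box (CACGTG), were found in none of the 3 windows. Of 35116 RefSeq promoters of this length, 42.6% held a GC box, 32.0% a CCAAT box, 10.7% a TATA box, 6.57% an AP-1 site and 6.34% an E-box. G and C made up 71.2% of the ITGB8 window, 70.4% of the LAMB1 window and 48.4% of the LAMA4 window, and the median over these promoters was 58.0%. A match is a match of letters only.

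The libraries held 18415036 to 23162682 reads on genes, recovered as whole multiples of each gene's value of 1 read, and replicates differed by more than counting noise in all 7 groups (chi-square per degree of freedom at least 1.47, and highest, at 8.0, for SIN3A/3B-DKO2). Values are in TPM, transcripts per 1000000 transcripts, which correct for gene length. The targeted genes were read first. SAP30 was at 78.9 and 82.8 TPM in parental and 2.75 to 4.96 TPM in the SAP30-KO libraries. MLL, the table's symbol of the MLL1 gene, was at 56.7 and 49.0 TPM in parental, 15.8 to 27.7 TPM in MLL1-KO and 23.0 to 35.4 TPM in SAP30-KO. SIN3B was at 75.1 and 77.4 TPM in parental and 43.5 to 50.2 TPM in SIN3A/3B-DKO. RNA of SIN3A went the other way, at 55.1 to 62.5 TPM in these lines against 43.1 and 45.4 TPM in parental. Protein was not measured here, so this RNA does not decide whether SIN3A protein was lost. The paper reports that knockout of both proteins was checked by immunoblot. SIN3A/3B-DKO is used here for libraries so labelled. The 4 markers expected in the cell line were present in every library, with VIM at 5741 to 8805 TPM, CD44 at 267 to 611 TPM and EGFR at 96.1 to 192 TPM. The last was KRT18. Of 5 markers expected to be low (ESR1, PGR, ERBB2, EPCAM and CDH1), 3 reached 1 TPM in parental and 2 in each edited line. These 5 summed to 61.9 to 63.3 TPM in parental, with a highest value of 42.8 TPM, so not all were low. In the edited lines they summed to 32.3 to 37.7 TPM. The 7 luminal epithelial markers summed to 465 to 476 TPM in parental and 123 to 269 TPM in the edited lines, with ESR1 at or below 0.191 TPM. Most of each sum came from a single marker, with a highest value of 444 TPM in parental and 247 TPM in MLL1-KO1. The part of this difference in the members' values was not tested. Markers of endothelium summed to 3.36 to 9.70 TPM and those of fibroblasts to 6.31 to 15.3 TPM.

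A gene was tested if it reached 1 TPM in at least 2 of the 14 libraries, and 13540 genes and 21 members did (14 integrin and 7 laminin genes). All 21 reached 1 TPM in both parental libraries, so none was admitted by an edited line alone. A member was called lower or higher when the Benjamini-Hochberg adjusted p of limma, over all genes tested, was under 0.05 and the change was at least 1.5-fold. Log2 changes are differences of log2(TPM + 0.5), a scale that understates the change of genes near 1 TPM. The labels do not say whether 2 libraries of a group came from separate cultures, so the p-values measure only the spread between these libraries, which may be technical. In such bulk RNA, a smaller share of cells expressing a gene and less RNA of it per cell cannot be told apart.

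ITGB4, the β4 chain, and LAMA4, a laminin α chain, were the 2 members called in all 6 edited lines, as were 4.1% of all genes tested. ITGB4 fell in SAP30-KO and further in SIN3A/3B-DKO but rose in MLL1-KO, and LAMA4 fell in every line. ITGB3 and LAMA3 rose in both SAP30-KO lines and SIN3A/3B-DKO1, and ITGB3 fell in both MLL1-KO lines and LAMA3 in MLL1-KO2. The chains at the highest levels in parental, ITGB1 and ITGA3, were called in no line.

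Of the 21 tested members, 14 were called in at least 1 line and 7 in none (ITGA3, ITGAV, ITGAE, ITGB1, ITGB5, LAMB2 and LAMC1), while 41.4% of all genes tested were called in at least 1 line. Against parental, SAP30-KO1 had 4 members lower (7.86% of all genes tested were called lower) and 3 higher (7.8% of all genes). SAP30-KO2 had 4 lower (all genes, 8.12%) and 3 higher (7.44%). SIN3A/3B-DKO1 had 6 lower (8.66%) and 3 higher (7.76%), and SIN3A/3B-DKO2 had 4 lower (7.56%) and 0 higher (6%). For SIN3A/3B-DKO2, 6 members were higher at an unadjusted limma p under 0.05, and limma-voom on the recovered reads called 1 higher. In MLL1-KO1, 4 members were lower (all genes, 16.3%) and 5 higher (6.89%), while MLL1-KO2 had 5 lower (14.9%) and 6 higher (10.2%). With both lines of a genotype averaged, SAP30-KO had 4 members lower (all genes, 7.88%) and 2 higher (7.64%), SIN3A/3B-DKO 4 lower (7.85%) and 2 higher (6.42%), and MLL1-KO 5 lower (14.9%) and 6 higher (7.58%).

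The median log2 change of the 21 members was -0.11 and -0.09 for the SAP30-KO lines, where all genes tested had medians of 0.03 and 0.01. For the SIN3A/3B-DKO lines the members' medians were -0.42 and -0.28 (all genes, 0.00 and 0.01), and for the MLL1-KO lines -0.03 and 0.10 (all genes, -0.09 and -0.04). Of 126 member-by-line values, 47 were called, and in these the 2 edited libraries did not overlap with the 2 parental libraries. The calls used the same libraries, so this adds no support to them. The share over all genes is not given here. The 5 members that were lower in some lines and higher in others were ITGA6, ITGB3, ITGB4, LAMA3 and LAMB1, and 3.06% of all genes tested had calls in both directions.

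**Figure D1:**
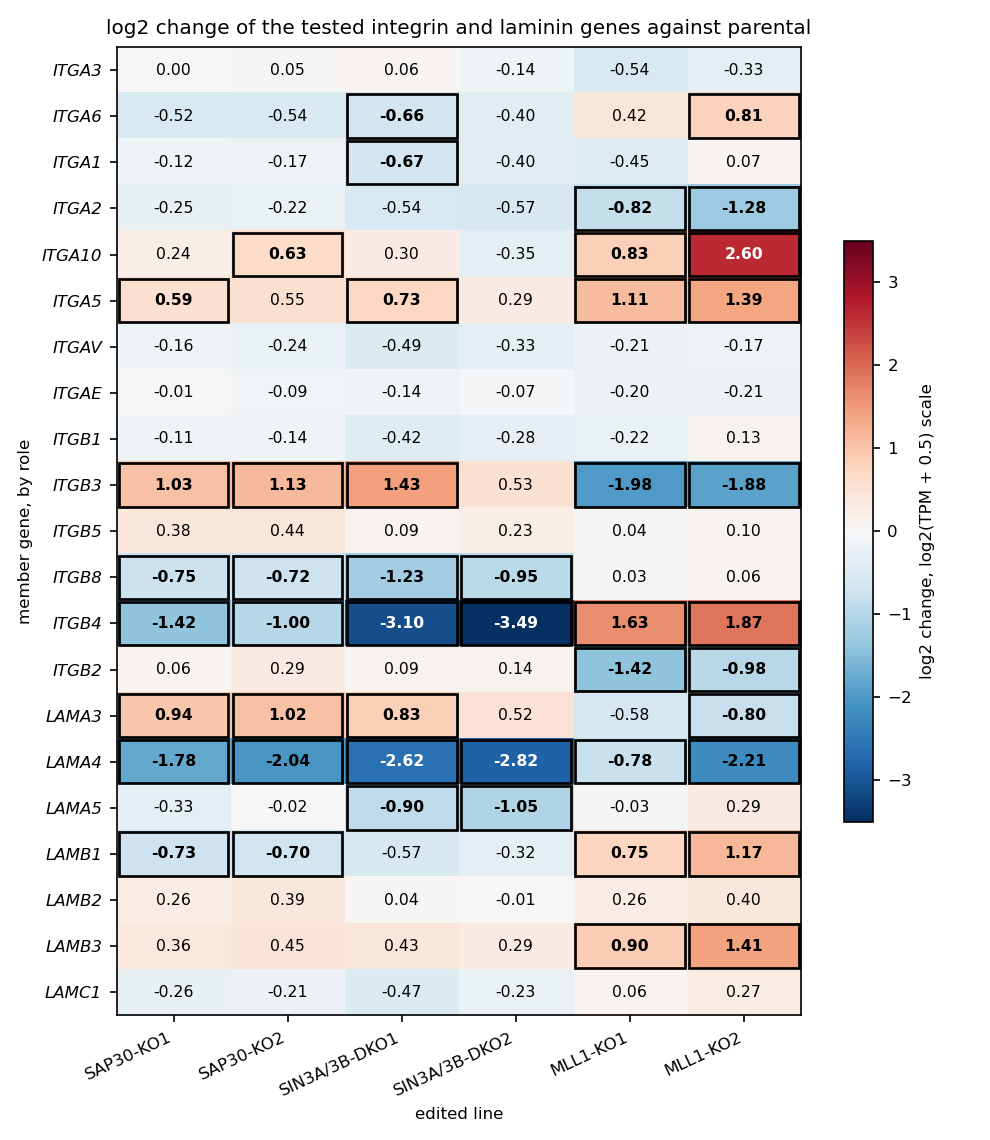
Log2 change against parental of the 21 tested members (rows, by role) in the 6 edited lines (columns), on the log2(TPM + 0.5) scale, with blue for lower and red for higher. Bold, boxed values were called. The ITGB4 row runs from -3.49 in SIN3A/3B-DKO2 to 1.87 in MLL1-KO2, and the LAMA4 row is boxed and blue in every line.

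ITGA3 and ITGA6, the α chains of the main laminin receptors, were among the members at the highest levels, and ITGA6 fell in SIN3A/3B-DKO1 and rose in MLL1-KO2. ITGA6 stood at 399.7 and 387 TPM in parental. SAP30-KO1 held 279 and 267 TPM and SAP30-KO2 272 and 267, against 248 and 249 for SIN3A/3B-DKO1 and 276 and 320.4 for SIN3A/3B-DKO2. MLL1-KO1 held 534 and 517 TPM and MLL1-KO2 701 and 681 TPM. The 8 libraries of SAP30-KO and SIN3A/3B-DKO were all below both parental libraries, and the 4 of MLL1-KO were all above them. The log2 change was -0.66 (SE 0.056; limma adjusted p = 3.4e-06) in SIN3A/3B-DKO1 and 0.81 (limma adjusted p = 3.1e-07) in MLL1-KO2. The other lines had -0.52 (SAP30-KO1), -0.54 (SAP30-KO2), -0.40 (SIN3A/3B-DKO2) and 0.42 (MLL1-KO1), each past the adjusted p but short of 1.5-fold. When the median of neighbouring genes on the chromosome was subtracted in each library, the change in SIN3A/3B-DKO1 became -0.47 and was no longer called, while that in MLL1-KO1 became 0.60 and was called higher.

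ITGA3 ranged from 474 to 732 TPM and was called in no line. Its lowest libraries were those of MLL1-KO1, at 480.1 and 474 TPM, and MLL1-KO2, at 540.3 and 565 TPM, against 694 and 691 TPM in parental. In these lines it changed by -0.54 (limma adjusted p = 1.8e-07) and -0.33 (limma adjusted p = 8.7e-06), both under the fold minimum. With the median of neighbouring genes on the chromosome subtracted, the values were -0.02 (limma adjusted p = 0.66) and 0.16 (limma adjusted p = 0.0073), and the lower level did not pass the test in either line. Within a library, ITGA6 came to 57.6 and 56.0 TPM per 100 TPM of ITGA3 in parental, to 34.2 to 51.5 in the libraries of SAP30-KO and SIN3A/3B-DKO and to 109 to 129.7 in MLL1-KO, and ITGA6 exceeded ITGA3 in the 4 MLL1-KO libraries and in no other. ITGA7, the laminin-binding α chain of muscle, stayed at or below 0.458 TPM and was not tested.

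ITGB4, which encodes the β4 chain that binds laminin together with α6 and whose gene lies at chr17:73717408-73753899 (GRCh37), showed the widest span of any tested member on the log2(TPM + 0.5) scale. Parental libraries were at 59.9 and 61.2 TPM, SAP30-KO1 at 23.9 and 20.9 TPM and SAP30-KO2 at 29.5 and 30.4 TPM. In SIN3A/3B-DKO1 the level was 7.13 and 6.18 TPM and in SIN3A/3B-DKO2 5.16 and 4.69 TPM, whereas MLL1-KO1 reached 190.3 and 186 TPM and MLL1-KO2 221 and 224 TPM. The 7 groups did not overlap with each other in any library. On the log2 scale ITGB4 changed by -1.42 and -1.0 in SAP30-KO1 and SAP30-KO2, by -3.10 and -3.49 in the SIN3A/3B-DKO lines and by 1.63 and 1.87 in the MLL1-KO lines (SE 0.076 in each; limma adjusted p at most 1.4e-06). As ratios of mean TPM, ITGB4 was 2.31-fold lower in SAP30-KO, 10.5-fold lower in SIN3A/3B-DKO and 3.39-fold higher in MLL1-KO than in parental.

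The RNA of ITGB4 was set against that of its α chain within each library. Per 100 TPM of ITGA6, ITGB4 came to 15.0 and 15.8 TPM in parental and 7.81 to 11.4 TPM in SAP30-KO. It came to 1.46 to 2.87 TPM in SIN3A/3B-DKO and 31.5 to 35.9 TPM in MLL1-KO. ITGA6 RNA therefore exceeded ITGB4 RNA in every library. ITGB4 made up 5.69 to 5.80% of the summed integrin β TPM in parental, 0.506 to 0.877% in SIN3A/3B-DKO and 17.3 to 18.3% in MLL1-KO.

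**Figure D2:**
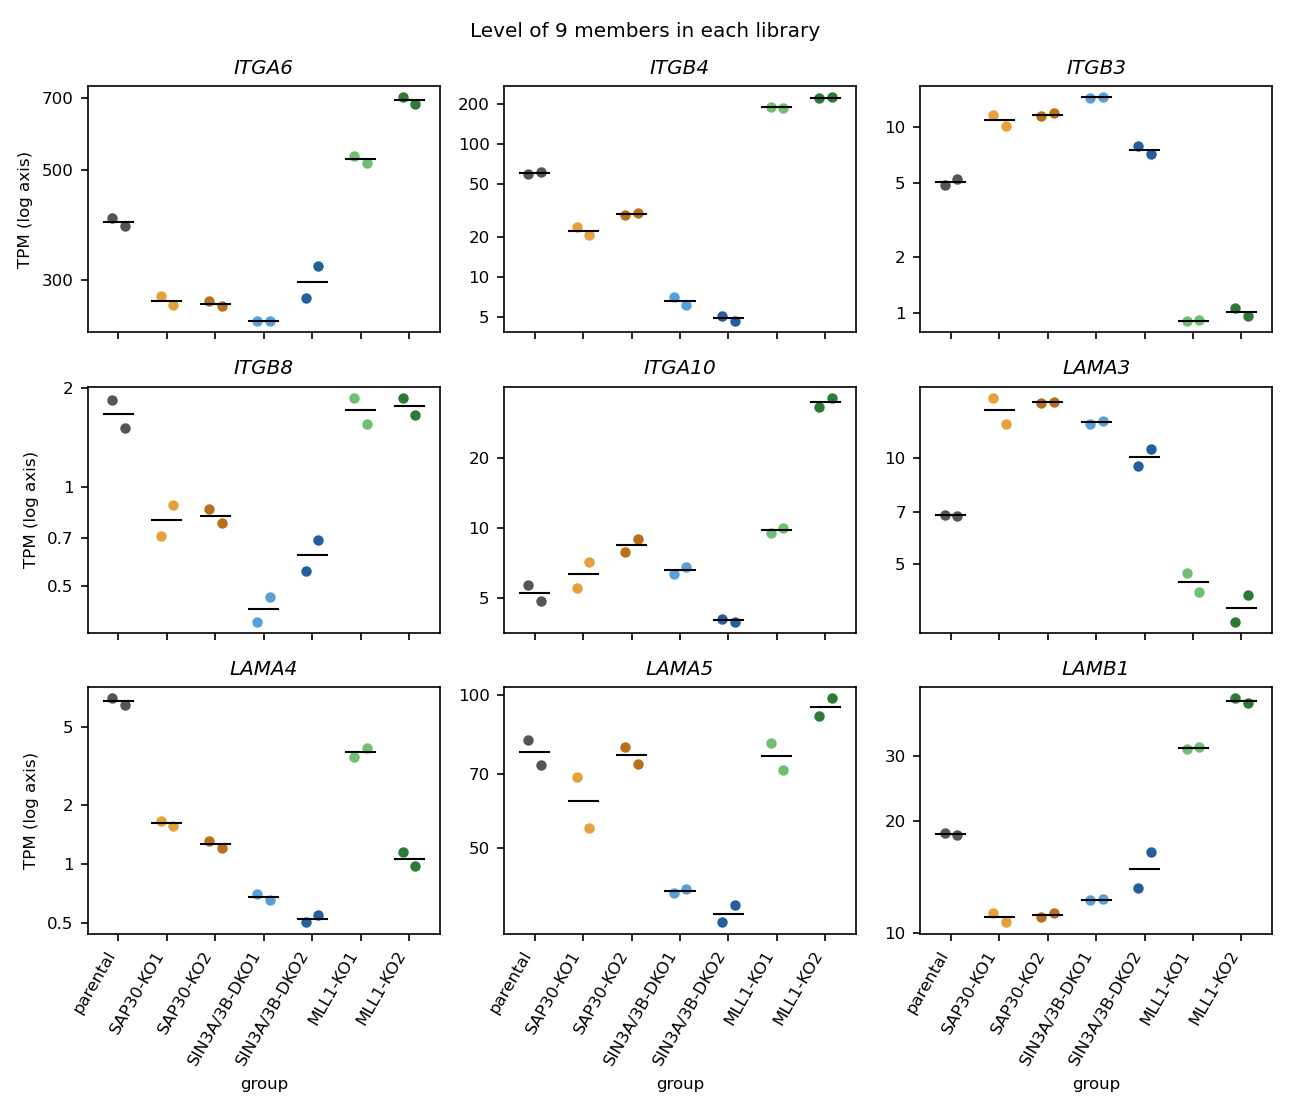
TPM (log axis) of 9 members in each library, with 2 points per group and a line at their mean. ITGB4 and ITGA6 are below parental in SAP30-KO and SIN3A/3B-DKO and above it in MLL1-KO, ITGB3 and LAMA3 show the opposite order, and LAMA4 is below parental in every edited library.

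ITGB1, the β1 chain shared by most α chains, was the integrin at the highest level in parental, at 827 and 829.6 TPM, and ranged from 619.6 to 911 TPM. It was called in no line. Its log2 change was -0.42 in SIN3A/3B-DKO1 (limma adjusted p = 4.8e-05) and 0.13 in MLL1-KO2 (limma adjusted p = 0.037), short of 1.5-fold. ITGB1 held 74.8 to 79.0% of the summed integrin β TPM in the 10 libraries other than MLL1-KO and 68.1 to 70.9% in MLL1-KO.

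Of the collagen-binding α chains, ITGA2 fell and ITGA10 rose in both MLL1-KO lines, and ITGA1 fell in SIN3A/3B-DKO1. ITGA2 was at 207 and 194 TPM in parental. SAP30-KO1 held 177 and 158 TPM and SAP30-KO2 171 and 172, against 134 and 140.0 for SIN3A/3B-DKO1 and 127 and 143 for SIN3A/3B-DKO2. MLL1-KO1 held 113 and 112 TPM and MLL1-KO2 80.9 and 83.0 TPM. Every edited library was below both parental libraries. ITGA2 changed by -0.82 and -1.28 on the log2 scale in the MLL1-KO lines (SE 0.062; limma adjusted p at most 7.3e-07). In the SIN3A/3B-DKO lines it was -0.54 and -0.57, just short of 1.5-fold. Without parental replicate 2 these values were -0.59 and -0.62, and both lines were then called lower. SIN3A/3B-DKO2 was called lower also without its replicate 2 (-0.66) and under quantile normalization (-0.59), median-ratio scaling and neighbour subtraction.

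ITGA10, a collagen receptor chain best known from cartilage, was low in parental, at 5.68 and 4.86 TPM. SAP30-KO1 held 5.54 and 7.13 TPM, SAP30-KO2 7.89 and 8.97, SIN3A/3B-DKO1 6.35 and 6.81 and SIN3A/3B-DKO2 4.09 and 3.97. In MLL1-KO1 it was 9.51 and 10.0 TPM and in MLL1-KO2 32.9 and 36.2 TPM, the highest of the 7 groups. It rose by 0.83 on the log2 scale in MLL1-KO1 and by 2.60 in MLL1-KO2 (SE 0.12; limma adjusted p = 0.00011 and 1.1e-08), and by 0.63 in SAP30-KO2 (limma adjusted p = 0.0011). The call in SAP30-KO2 was lost without parental replicate 2 (0.53) and without SAP30-KO2 replicate 2 (0.54), and with the neighbour median subtracted (0.48).

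ITGA1, the other widely expressed collagen receptor chain, was at 29.1 and 27.6 TPM in parental and 17.4 and 17.9 TPM in SIN3A/3B-DKO1, where it fell by 0.67 on the log2 scale (SE 0.085; limma adjusted p = 6.6e-05). SAP30-KO1 held 26.3 and 25.7 TPM, SAP30-KO2 23.6 and 26.8, and SIN3A/3B-DKO2 19.8 and 22.9. The MLL1-KO1 libraries were at 20.3 and 21.0 TPM and those of MLL1-KO2 at 27.9 and 31.7 TPM. MLL1-KO2 overlapped with parental, and the other lines lay below it. An antisense gene shares 7.47% of the exon bases of ITGA1, and RPL17P21 and PELO on the same strand share 3.08% and 2.69%. How reads there were assigned was not tested. ITGA11 reached at most 0.472 TPM and was not tested.

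ITGA5, the α chain of the main fibronectin receptor, rose in SAP30-KO1, SIN3A/3B-DKO1 and both MLL1-KO lines. Its level was 104 and 100.2 TPM in parental. SAP30-KO1 held 160.0 and 148 TPM and SAP30-KO2 149 and 150.2, against 167 and 171 for SIN3A/3B-DKO1 and 129 and 121 for SIN3A/3B-DKO2. MLL1-KO1 held 220.5 and 222 TPM and MLL1-KO2 268 and 268 TPM. All 12 edited libraries were above both parental libraries. It rose by 1.11 and 1.39 on the log2 scale in the MLL1-KO lines, by 0.73 in SIN3A/3B-DKO1 and by 0.59 in SAP30-KO1 (SE 0.042; limma adjusted p at most 1e-06). SAP30-KO1 and SAP30-KO2 lay on either side of the 1.5-fold minimum, at 0.59 and 0.55. The SAP30-KO1 call was lost without parental replicate 2 (0.57), without SAP30-KO1 replicate 1 (0.53) and under median-ratio scaling (0.55), as it was with the neighbour median subtracted (0.52).

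Per 100 TPM of the collagen-binding ITGA2, ITGA5 came to 50.2 and 51.7 TPM in parental, 87.4 to 93.2 in SAP30-KO, 84.6 to 124 in SIN3A/3B-DKO, 195 and 198 for MLL1-KO1 and 332 and 323 for MLL1-KO2. ITGA2 was the more abundant in parental and SAP30-KO, and ITGA5 in MLL1-KO and SIN3A/3B-DKO1. The SIN3A/3B-DKO2 libraries were split, at 102 and 84.6 TPM of ITGA5 per 100 TPM of ITGA2. ITGAV, the α chain that pairs with several β chains and binds vitronectin and fibronectin, was at 50.0 and 49.1 TPM in parental and 34.9 to 45.2 TPM in the edited libraries and was called in no line. Its largest log2 change was -0.49 in SIN3A/3B-DKO1 (limma adjusted p = 2.3e-05).

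Among the β chains that pair with αV, ITGB3 and ITGB8 changed while ITGB5 did not pass the call in any line. ITGB3, the β3 chain of the vitronectin receptor, lies at chr17:45331193-45391109 (GRCh37). It was at 4.86 and 5.28 TPM in parental. SAP30-KO1 held 11.6 and 10.2 TPM and SAP30-KO2 11.4 and 11.9, against 14.4 and 14.5 for SIN3A/3B-DKO1 and 7.94 and 7.19 for SIN3A/3B-DKO2. The MLL1-KO1 libraries held 0.902 and 0.916 TPM and those of MLL1-KO2 1.06 and 0.967 TPM, from 34 to 36 reads each. The 8 libraries of SAP30-KO and SIN3A/3B-DKO were all above parental, and the 4 MLL1-KO libraries all below it.

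ITGB3 rose by 1.03 and 1.13 on the log2 scale in the SAP30-KO lines and by 1.43 in SIN3A/3B-DKO1, and its change was -1.98 and -1.88 in the MLL1-KO lines (SE 0.093; limma adjusted p at most 5.5e-06). By mean TPM it was 5.28-fold lower in MLL1-KO than in parental. The value in SIN3A/3B-DKO2, 0.53, was short of 1.5-fold, and it was called higher without SIN3A/3B-DKO2 replicate 2 (0.60) and without parental replicate 2 (0.59). The 51 genes around ITGB3 had median log2 changes of -0.58 and -0.52 in the MLL1-KO lines, and with that median subtracted in each library ITGB3 remained lower, at -1.41 and -1.37. An annotated transcript of the same strand shares 33.2% of the exon bases of ITGB3, and how such reads were assigned was not tested. Per 100 TPM of ITGAV, ITGB3 came to 9.71 and 10.8 TPM in parental, 23.6 to 27.8 in SAP30-KO, 17.2 to 41.3 in SIN3A/3B-DKO and 2.09 to 2.40 in MLL1-KO.

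ITGB8, the β8 chain of an αV receptor that activates latent TGF-β, was low throughout. Parental libraries held 1.84 and 1.51 TPM, SAP30-KO1 0.713 and 0.881, SAP30-KO2 0.859 and 0.779, SIN3A/3B-DKO1 0.389 and 0.464 and SIN3A/3B-DKO2 0.555 and 0.691. MLL1-KO1 was at 1.87 and 1.56 TPM and MLL1-KO2 at 1.87 and 1.67 TPM, which overlapped with parental. ITGB8 fell in the 4 SAP30-KO and SIN3A/3B-DKO lines, with log2 changes of -0.75, -0.72, -1.23 and -0.95 (SE 0.16; limma adjusted p at most 0.0033). With a pseudocount of 1 the SAP30-KO values were -0.57 and -0.55 and fell short of 1.5-fold. By mean TPM it was 2.07-fold lower in SAP30-KO and 3.19-fold lower in SIN3A/3B-DKO. Its neighbours on chromosome 7 had the opposite sign, with medians of 0.36 to 0.46 over these 4 lines. The interval of the ITGB8 change in MLL1-KO was -0.26 to 0.35 on the log2 scale (95% confidence).

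ITGB5, the other αV partner at a high level, ranged from 119 to 166 TPM, with its largest log2 change, 0.44, in SAP30-KO2 (limma adjusted p = 6.8e-06). It was well above ITGB3 and ITGB8 in every library: per 100 TPM of ITGB5, ITGB3 came to 0.697 to 11.2 TPM. ITGB6, the epithelial αV partner, was at or below 0.246 TPM and was not tested.

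ITGB2, the β2 chain of the leukocyte integrins, was present in every library and fell in both MLL1-KO lines. It was at 36.8 and 37.0 TPM in parental. SAP30-KO1 held 39.8 and 37.4 TPM and SAP30-KO2 45.0 and 45.5, against 40.2 and 38.3 for SIN3A/3B-DKO1 and 41.6 and 39.7 for SIN3A/3B-DKO2. MLL1-KO1 held 13.7 and 13.4 TPM and MLL1-KO2 18.4 and 18.5 TPM, below every other library. It changed by -1.42 and -0.98 on the log2 scale in the MLL1-KO lines (SE 0.047; limma adjusted p at most 1.6e-08) and 0.06 to 0.29 over the other 4 lines. Its partners ITGAL, ITGAM and ITGAD had at most 2 reads in any library, and ITGAX had 0 reads in all 14, a count that allows up to 3 reads per library. Of 8 leukocyte markers, 2 to 4 per group reached 1 TPM, and their sum ran from 189 to 318 TPM, mostly CD68 (159 to 287 TPM). PTPRC was at most 0.603 TPM and CD3E and CD53 were each at most 0.0802 TPM.

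ITGAE, the α chain that binds E-cadherin together with β7, ranged from 12.3 to 15.7 TPM and was called in no line, with log2 changes of -0.21 to -0.01. Its partner ITGB7 had at most 5 reads in any library. Exons of an antisense gene cover 6.47% of the exon bases of ITGAE, and whether the counting used strand is not given in the sources used here.

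Of 24 known α and β pairs among the members, 11 had both chains tested. ITGA3 exceeded ITGB1 in both SIN3A/3B-DKO1 libraries, and no α chain did in the other 12. The less abundant chain of the α6β4 pair ran from 4.69 to 224 TPM and that of the αVβ3 pair from 0.902 to 14.5 TPM.

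Of the laminin α chains, LAMA4 fell in every line, LAMA3 rose in SAP30-KO and SIN3A/3B-DKO1 and fell in MLL1-KO2, and LAMA5 fell in SIN3A/3B-DKO. LAMA4, the α4 chain typical of vessel and mesenchymal basement membranes, lies at chr6:112429134-112576141 (GRCh37). Parental libraries held 6.98 and 6.49 TPM, SAP30-KO1 1.65 and 1.57, SAP30-KO2 1.31 and 1.21, SIN3A/3B-DKO1 0.700 and 0.653 and SIN3A/3B-DKO2 0.502 and 0.545. In MLL1-KO1 it was 3.52 and 3.90 TPM and in MLL1-KO2 1.15 and 0.975 TPM. All 12 edited libraries were below parental, with MLL1-KO1 nearest to it. The log2 change was -1.78, -2.04, -2.62, -2.82, -0.78 and -2.21 in the order of the 6 lines (SE 0.13; limma adjusted p at most 0.00026). By mean TPM, LAMA4 was 4.69-fold lower in SAP30-KO, 11.2-fold lower in SIN3A/3B-DKO, 1.82-fold lower in MLL1-KO1 and 6.34-fold lower in MLL1-KO2. The call in MLL1-KO1 was lost under quantile normalization (-0.55) and with the neighbour median, -0.26, subtracted (-0.53).

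LAMA3, the α chain of the epidermal laminin that α6β4 binds in hemidesmosomes, was at 6.88 and 6.84 TPM in parental. SAP30-KO1 held 14.8 and 12.5 TPM and SAP30-KO2 14.3 and 14.4, against 12.5 and 12.7 for SIN3A/3B-DKO1 and 9.48 and 10.6 for SIN3A/3B-DKO2. MLL1-KO1 held 4.72 and 4.17 TPM and MLL1-KO2 3.42 and 4.07 TPM. Every SAP30-KO and SIN3A/3B-DKO library was above parental and every MLL1-KO library below it. LAMA3 rose by 0.94, 1.02 and 0.83 on the log2 scale in both SAP30-KO lines and SIN3A/3B-DKO1, and its change was -0.80 in MLL1-KO2 (SE 0.11; limma adjusted p at most 6.3e-05). The values in SIN3A/3B-DKO2, 0.52, and MLL1-KO1, -0.58, were short of 1.5-fold. The second was called with a pseudocount of 0.1 (-0.62). Both were called once a library was left out, at 0.60 without SIN3A/3B-DKO2 replicate 1 and at -0.66 without MLL1-KO1 replicate 1.

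LAMA5, the α chain of the main laminin of adult epithelia and vessels, was the laminin α chain at the highest level in every library. It was at 81.6 and 72.9 TPM in parental. SAP30-KO1 held 69.0 and 54.7 TPM and SAP30-KO2 79.1 and 73.1, against 80.4 and 71.2 for MLL1-KO1 and 91.0 and 98.6 for MLL1-KO2. SIN3A/3B-DKO1 held 40.7 and 41.5 TPM and SIN3A/3B-DKO2 35.6 and 38.5 TPM, below every library of the other groups. LAMA5 changed by -0.90 and -1.05 on the log2 scale there (SE 0.10; limma adjusted p at most 3e-05) and -0.33 to 0.29 over the other 4 lines. LAMA5 made up 84.1 to 85.1% of the summed laminin α TPM in parental, 74.7 to 76.8% in SIN3A/3B-DKO and 89.1 to 94.3% in MLL1-KO, while LAMA3 made up 7.17 to 7.90%, 20.4 to 23.0% and 3.55 to 5.28%.

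The laminin β chains LAMB1 and LAMB3 rose in both MLL1-KO lines, and LAMB1 fell in both SAP30-KO lines. LAMB1, the widely expressed β1 chain, was at 18.7 and 18.4 TPM in parental. SAP30-KO1 held 11.3 and 10.7 TPM and SAP30-KO2 11.1 and 11.3, against 12.3 and 12.3 for SIN3A/3B-DKO1 and 13.2 and 16.5 for SIN3A/3B-DKO2. MLL1-KO1 reached 31.4 and 31.7 TPM and MLL1-KO2 42.9 and 41.8 TPM. All libraries of the first 4 lines were below parental and those of MLL1-KO were above it. The log2 change was -0.73 and -0.70 in SAP30-KO and 0.75 and 1.17 in MLL1-KO (SE 0.085; limma adjusted p at most 4.7e-05). The SIN3A/3B-DKO lines had -0.57 and -0.32, short of 1.5-fold, and the first was called with a pseudocount of 0.1 (-0.59).

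LAMB3, the β chain that joins LAMA3 in the epidermal laminin, was at 238 and 226 TPM in parental. SAP30-KO1 held 308 and 289 TPM and SAP30-KO2 323 and 308, against 315 and 308 for SIN3A/3B-DKO1 and 284 and 282 for SIN3A/3B-DKO2. MLL1-KO1 held 437 and 428 TPM and MLL1-KO2 627 and 609 TPM. All 12 edited libraries were above parental. LAMB3 rose by 0.90 and 1.41 on the log2 scale in the MLL1-KO lines (SE 0.039; limma adjusted p at most 9.7e-09), and over the other 4 lines its change was 0.29 to 0.45. In MLL1-KO2 the 2 chains of this laminin were called in opposite directions. Per 100 TPM of LAMB3, LAMA3 came to 2.89 and 3.04 TPM in parental, 3.33 to 4.81 in SAP30-KO and SIN3A/3B-DKO, 1.08 and 0.974 for MLL1-KO1 and 0.546 and 0.669 for MLL1-KO2.

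**Figure D3:**
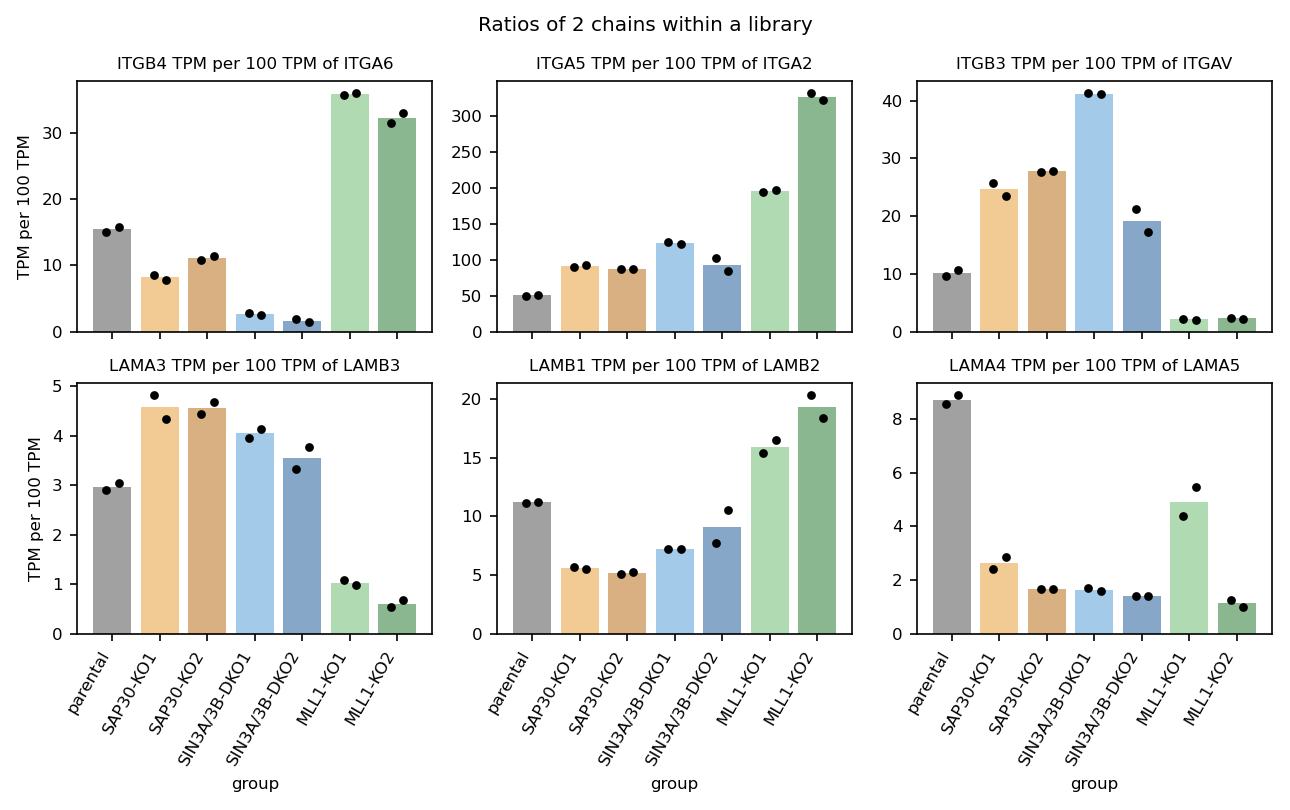
Ratios of the TPM of 2 chains within a library, as TPM of the first per 100 TPM of the second, with bars at the mean of the 2 libraries of a group and points for each library. ITGB4 per 100 ITGA6 is lowest in SIN3A/3B-DKO (1.46 to 2.87) and highest in MLL1-KO (31.5 to 35.9), and LAMA3 per 100 LAMB3 is lowest in MLL1-KO (0.546 to 1.08).

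LAMB2, the β2 chain of synaptic and kidney basement membranes, ranged from 157 to 227 TPM, and LAMC1, the most common γ chain, from 139 to 239.9 TPM. Neither was called in a line. The largest log2 change was 0.40 in MLL1-KO2 for LAMB2 (limma adjusted p = 2.5e-05) and -0.47 in SIN3A/3B-DKO1 for LAMC1 (limma adjusted p = 6.4e-05). Per 100 TPM of LAMB2, LAMB1 came to 11.1 and 11.3 TPM in parental, 5.11 to 5.65 in SAP30-KO, 7.22 to 10.6 in SIN3A/3B-DKO and 15.4 to 20.3 in MLL1-KO.

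The summed TPM of all 4 laminin β chains was 424 and 407 in parental and 881 and 878 in MLL1-KO2, mostly LAMB3, while the sum of the 5 laminin α chains was 95.9 and 86.7 TPM in parental, 46.4 to 55.5 in SIN3A/3B-DKO and 96.5 and 105 in MLL1-KO2. The summed laminin β RNA exceeded the summed laminin α RNA in every library. Summed integrin α chains ran from 1240.3 to 1721 TPM and summed β chains from 808 to 1288 TPM.

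The 16 members that were not tested stayed at or below 0.921 TPM in every library. For 9 of them, ITGA8, ITGA4, ITGA9, ITGAD, ITGAL, ITGAM, ITGAX, LAMB4 and LAMC3, at most 3 reads were recovered in any library, so no difference between groups was detectable at this depth. ITGA7, ITGA11, ITGA2B, ITGB6 and ITGB7 had up to 17, 16, 5, 4 and 5 reads. LAMA2, the muscle α chain, had 20 to 55 reads. LAMA1, the α chain of embryonic basement membranes, was at 0.115 and 0.0591 TPM in parental, 0.471 to 0.921 in SAP30-KO, 0.0610 to 0.332 in SIN3A/3B-DKO, 0.0508 and 0.142 for MLL1-KO1 and 0.413 and 0.432 for MLL1-KO2, from 4 to 69 reads.

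The genotypes were then compared with each other, as the mean of the 2 lines of one minus the mean of the 2 lines of the other, in the same limma fit. The intervals and tests take their error from the spread between libraries of a line, not from that between lines. MLL1-KO differed from SAP30-KO in 11 members, with 4 lower (13.5% of all genes tested were lower) and 7 higher (6.34%). The largest were ITGB3, at -3.01 (95% interval -3.16 to -2.87), and ITGB4, at 2.96 (2.84 to 3.08). LAMA3, ITGB2 and ITGA2 were also lower in MLL1-KO, with log2 differences of -1.66, -1.37 and -0.81. LAMB1, ITGA10, ITGA6, ITGB8, LAMB3 and ITGA5 were higher, by 1.68, 1.28, 1.15, 0.78, 0.75 and 0.68.

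Against SIN3A/3B-DKO, MLL1-KO differed in 12 members, with 3 lower (13% of all genes) and 9 higher (6.91%). ITGB4 was higher by 5.04 on the log2 scale (4.92 to 5.16), and LAMA4 and LAMA5 were higher by 1.22 and 1.11. ITGB3, LAMA3 and ITGB2 were lower, with log2 differences of -2.91, -1.36 and -1.31.

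SAP30-KO and SIN3A/3B-DKO differed in 3 members, all higher in SAP30-KO (4.22% of all genes tested were higher): ITGB4 by 2.08 (SE 0.054), LAMA4 by 0.81 (SE 0.088) and LAMA5 by 0.80 (SE 0.073) on the log2 scale. No member was called lower in SAP30-KO (3.25% of all genes), where 1 was lower at an unadjusted limma p under 0.05 and limma-voom called 0. For ITGA6, the interval of the difference was -0.09 to 0.08, for ITGB3 -0.05 to 0.25 and for LAMA3 0.14 to 0.47, all of them inside a 1.5-fold difference. These intervals do not show that the genotypes are alike, because they leave out the spread between lines. For ITGB3, SIN3A/3B-DKO1 and SIN3A/3B-DKO2 themselves differed by 0.89.

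**Figure D4:**
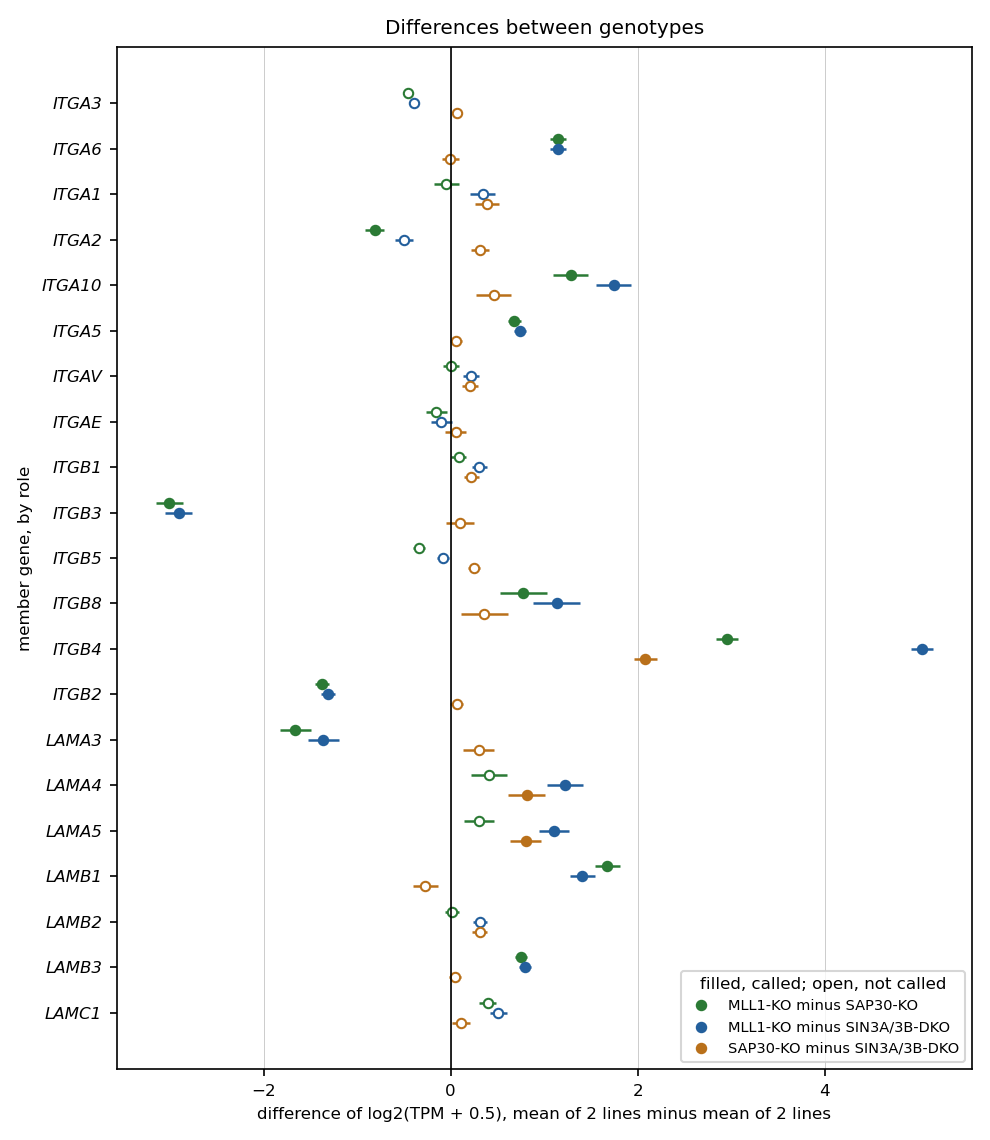
Difference of the mean log2(TPM + 0.5) between genotypes for the 21 tested members, each over 2 lines against 2 lines, with 95% confidence intervals from the limma fit. The intervals leave out the spread between lines. Filled points were called. ITGB4 stands furthest to the right in both MLL1-KO comparisons (2.96 and 5.04) and ITGB3 furthest to the left (-3.01 and -2.91).

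Lines of one genotype were compared in the same way. Between SAP30-KO1 and SAP30-KO2, 0 members were called (0.0739% of all genes were called in each direction). At an unadjusted limma p under 0.05, 5 members were lower in SAP30-KO1 and 0 higher, and limma-voom called 0. SIN3A/3B-DKO1 was above SIN3A/3B-DKO2 in 2 members (1.22% of all genes), ITGA10 by 0.64 and ITGB3 by 0.89 on the log2 scale. No member was called below (1.01% of all genes), where 7 were at an unadjusted limma p under 0.05 and limma-voom called 0. MLL1-KO1 was below MLL1-KO2 in ITGA10, by a log2 difference of -1.77 (7.15% of all genes were lower), and above it in LAMA4, by 1.43 (3.27% were higher).

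Genes that work with integrins and laminins were read as 4 lists, against the shares of all genes called given above. Of 26 cytoplasmic adhesion partners, which link integrins to actin and to kinases, 24 were tested. In the SAP30-KO lines 2 and 3 of these were lower and 0 higher, while 4 and 5 were higher at an unadjusted limma p under 0.05 and limma-voom called 0 higher. In each SIN3A/3B-DKO line 4 were lower and 2 higher, and in the MLL1-KO lines 3 and 4 were lower and 6 in each higher. The median log2 change of the list ran from -0.07 in SAP30-KO1 to 0.17 in MLL1-KO2. FERMT1, the epithelial kindlin that activates integrins, went the same way as ITGB4: it was at 17.1 and 17.2 TPM in parental, 6.33 to 9.96 TPM in SAP30-KO and SIN3A/3B-DKO, 64.7 and 64.3 for MLL1-KO1 and 164 and 159 for MLL1-KO2, and it was called in all 6 lines. PTK2B, a kinase of the focal adhesion kinase family, rose from 0.318 and 0.357 TPM in parental to 6.43 to 12.3 TPM in MLL1-KO. Being under 1 TPM in both parental libraries, PTK2B was admitted to the test by edited libraries alone, which favours a rise. It is among the 6 counted as higher in each MLL1-KO line. Of this list, 22 genes reached 1 TPM in a parental library, fewer than the 24 tested. TNS1, the actin linker tensin, was at 3.84 and 3.43 TPM in parental and 0 to 0.0594 TPM in SAP30-KO, and it was called lower in all 6 lines.

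All 10 hemidesmosome and lateral membrane partners were tested, and 0 were called in SAP30-KO2 (2 lower and 4 higher at an unadjusted limma p under 0.05, and 0 by limma-voom), 1 in SAP30-KO1 and in each SIN3A/3B-DKO line, 2 for MLL1-KO1 and 4 for MLL1-KO2. The list had median log2 changes of -0.05 to 0.13. COL17A1, a transmembrane collagen of hemidesmosomes, rose in MLL1-KO, from 4.39 and 4.45 TPM in parental to 12.6 to 13.2 TPM in MLL1-KO1 and 22.6 to 23.1 TPM in MLL1-KO2, by 1.45 and 2.25 on the log2 scale (limma adjusted p at most 4.2e-07). DST, whose epithelial form is a hemidesmosome plaque protein, changed by -1.30 and -0.95 there, and both values were called lower. CD82, a tetraspanin that associates with integrins, fell in SIN3A/3B-DKO, with log2 changes of -0.69 and -0.77, and rose by 1.56 in MLL1-KO2. Each of these calls had a limma adjusted p of at most 9.2e-05.

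Of 12 other laminin receptors and basement membrane partners, 9 were tested, and 4 were lower and 2 higher in each MLL1-KO line, with 1 called in SAP30-KO1, 0 in SAP30-KO2 (4 lower and 4 higher at an unadjusted limma p under 0.05, and 0 by limma-voom), 3 in SIN3A/3B-DKO1 and 1 in SIN3A/3B-DKO2. HSPG2, the basement membrane proteoglycan perlecan, went from 31.1 and 25.2 TPM in parental to 1.14 to 2.24 TPM in MLL1-KO. NTN4, a netrin that binds laminin γ chains, went from 46.2 and 43.6 TPM to 5.55 to 25.2 TPM. BCAM, a receptor for LAMA5-containing laminins, went from 30.1 and 26.4 TPM to 10.5 to 14.2 TPM, and all 3 genes fell in both MLL1-KO lines. Of 18 other integrin ligands, 13 were tested, and 6 were lower in each MLL1-KO line, with 3 and 4 higher, and 4 to 7 were called in each of the other 4 lines. TNC, a matrix glycoprotein, was at 18.8 and 17.8 TPM in parental and 219 to 405 TPM in MLL1-KO and was called higher in all 6 lines. EDIL3, an αV ligand, was called lower in all 6 lines, with 294 and 308 TPM in parental and 22.3 to 23.8 TPM in MLL1-KO2. ICAM2, a ligand of β2 integrins, fell in both MLL1-KO lines, from 7.03 and 9.66 TPM in parental to 0.457 to 4.82 TPM.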

How the data were processed

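The authors sequenced poly(A) libraries (KAPA mRNA Hyper Prep) and deposited 1 table, headed RPKM. Each of its 14 columns sums to 1000000, so the deposited values are TPM, not counts. The submitters' processing notes name FastQC 0.11.2, TopHat, featureCounts and hg19. The annotation and strand setting are not given in the sources used here. With each library's relative depth taken from its lowest genes, the values of a gene were whole multiples of 1 read, within 0.02 of a whole number, for 18519 of 18519 genes above 0, which gives the depth (18415036 to 23162682 reads per library). Means of log2(TPM + 0.5) of the 7 groups were fitted with limma 3.58.1 (trend; R 4.3.3; 7 residual degrees of freedom) over 13540 genes with at least 1 TPM in at least 2 libraries. A call needed a Benjamini-Hochberg adjusted p under 0.05 and a 1.5-fold change. The fit was tested on simulated data. Alternatives were other pseudocounts, scalings, filters and fold minimums, limma-voom on recovered reads, a replicate block, subtraction of the median of 51 neighbouring genes, and leaving out each library. Gene positions come from GENCODE on GRCh37, and promoters from RefSeq. Members called in at least 1 line are given in all libraries and the others as ranges. Each partner list is shown by at most the 3 genes with the largest mean change among those called alike in both lines of a genotype. The members, partner lists and markers were chosen with earlier results of these data known.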

Additional observations from a re-analysis of the deposited data

Results flagged for a closer look

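These are members whose levels differed between genotypes, or between the lines of a genotype, by a direct limma test (Benjamini-Hochberg adjusted p under 0.05 and at least 1.5-fold). All are log2 differences, with the first-named group minus the second.

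MLL1-KO minus SAP30-KO gave 2.96 for ITGB4, 1.68 for LAMB1, 1.28 for ITGA10, 1.15 for ITGA6, 0.78 for ITGB8, 0.75 for LAMB3 and 0.68 for ITGA5. It gave -3.01 for ITGB3, -1.66 for LAMA3, -1.37 for ITGB2 and -0.81 for ITGA2.

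MLL1-KO minus SIN3A/3B-DKO gave 5.04 for ITGB4, 1.74 for ITGA10, 1.41 for LAMB1, 1.22 for LAMA4, 1.15 for ITGA6, 1.14 for ITGB8, 1.11 for LAMA5, 0.80 for LAMB3 and 0.74 for ITGA5. It gave -2.91 for ITGB3, -1.36 for LAMA3 and -1.31 for ITGB2. SAP30-KO minus SIN3A/3B-DKO gave 2.08 for ITGB4, 0.81 for LAMA4 and 0.80 for LAMA5.

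Within genotypes, SIN3A/3B-DKO1 minus SIN3A/3B-DKO2 gave 0.64 for ITGA10 and 0.89 for ITGB3, and MLL1-KO1 minus MLL1-KO2 gave -1.77 for ITGA10 and 1.43 for LAMA4. With 2 libraries per group, no library could be judged an outlier within its own group.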

How the results depend on the processing

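No called value changed sign under any of the 11 alternatives or the 14 fits that left out 1 library. Of the values that were not called, ITGA3 in MLL1-KO2 went from -0.33 to 0.16 with the neighbour median subtracted, both past the adjusted p, and ITGAV from -0.21 and -0.17 to 0.01 and 0.05 in the MLL1-KO lines. Of 47 called member-by-line values, 26 were kept under every one of these, and 41 when the 2-fold minimum is set aside. With a 2-fold minimum, lower members numbered 2 in SAP30-KO1, SAP30-KO2 and MLL1-KO1 and 3 in SIN3A/3B-DKO1 and MLL1-KO2, higher members 1 in SAP30-KO1 and SIN3A/3B-DKO1 and 2 in MLL1-KO1, and 7 members differed between MLL1-KO and SAP30-KO, 1 between SAP30-KO and SIN3A/3B-DKO and 0 between the SIN3A/3B-DKO lines. With no fold minimum, lower and higher members numbered 9 and 6 (SAP30-KO1), 9 and 8 (SAP30-KO2), 13 and 6 (SIN3A/3B-DKO2) and 8 and 11 (MLL1-KO2), with 11 lower in SIN3A/3B-DKO1 and 10 lower in MLL1-KO1. The differing members then numbered 17 between MLL1-KO and SAP30-KO, 20 between MLL1-KO and SIN3A/3B-DKO, 15 between SAP30-KO and SIN3A/3B-DKO, and 1, 9 and 15 between the lines of SAP30-KO, SIN3A/3B-DKO and MLL1-KO. The shares of all genes called under the alternatives in this section are not given here. The member counts under them therefore cannot be compared with all genes. With only the libraries of the contrast fitted, 0 members differed between the SIN3A/3B-DKO lines, and limma-voom called 1 member higher in SIN3A/3B-DKO2. Quantile normalization moved the median log2 change of all genes by 0.13 in MLL1-KO1 and by 0.10 for MLL1-KO minus SAP30-KO.

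Leaving out 1 library gave 2 to 3 members higher in each SAP30-KO line, 6 to 7 lower in SIN3A/3B-DKO1, 4 to 5 lower and 0 to 1 higher in SIN3A/3B-DKO2 (1 without parental replicate 2 or without either SIN3A/3B-DKO2 library), and 4 to 5 lower in MLL1-KO1. Between the SIN3A/3B-DKO lines it gave 1 to 2 members (1 without SIN3A/3B-DKO1 replicate 2), and between the MLL1-KO lines 2 to 3. Where a group was left with 1 library, that library was assumed to vary like the others.

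With the replicate number as a block, every count equalled that without it (for example, 4 lower and 3 higher in SAP30-KO1) and no call changed. The numbers were not taken as pairing the samples: deviations of same-numbered libraries correlated at a mean of 0.01 over 21 pairs of groups (-0.07 to 0.08).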
